A study of Mus musculus with 16 samples.

Results

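The C/EBP family genes followed here were Cebpa, Cebpb, Cebpd, Cebpg and Cebpz. They were taken from the gene table by exact symbol, and 4 of the 5 had an entry among its 18138 genes. Cebpd was not analysed here. Of the 4 genes with an entry, 1, Cebpb, was above background, on all 16 arrays. The members were selected on these measurements: Cebpb rose more from 0 h with the Akt inhibitor than without it at all times, and the others were included as family members. The changes of Cebpb from 0 h, the differences between cells with and without inhibitor and the difference in response are therefore given as a description with no test.

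C/EBP proteins are transcription factors that bind DNA as dimers through a basic leucine zipper (bZIP) domain. In blood cells they are best known from the myeloid lineage, where Cebpa and Cebpe direct granulocyte development and Cebpb and Cebpd are induced by inflammatory signals. Cebpb (NF-IL6) is translated into long activating and short inhibitory isoforms from a single mRNA, and it also takes part in the responses to amino acid shortage and to stress of the endoplasmic reticulum. Cebpg mainly pairs with other bZIP proteins. Cebpz bears the name for binding a CCAAT sequence and is not a bZIP protein.

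Gene expression was measured in D10 cells, a mouse CD4 T cell line of the Th2 type, here a fast-growing variant of a single clone. Cells received no Akti1/2 (control) or 10 µM Akti1/2, an allosteric inhibitor of the kinases Akt1 and Akt2, with 1 h of pre-incubation. The study's text describes the control cells both as untreated and as given solvent, so an effect of the solvent cannot be told apart from that of the inhibitor. Both arms were collected at 0, 2, 6 and 12 h of stimulation through CD3 and CD28, with 2 arrays for each of the 8 groups and 16 arrays in all. The sources used here do not say whether the 2 arrays of a group came from separate cultures, so p-values measure the spread between these arrays, which may be technical. No cells given the inhibitor for 2, 6 or 12 h without stimulation were analysed here, so time with inhibitor and time of stimulation cannot be told apart in the Akti1/2 arm. Values are RNA levels in bulk cultures, in which fewer cells expressing a gene and less RNA per cell cannot be told apart.

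Between 6288 and 6907 genes per array were above background, meaning that a share of under 0.01 of the 798 negative control probes was as bright. The 16 arrays lay on 2 chips of 8, with 1 array of every group on each chip. Of the 10 T helper and Th2 marker genes on the array, 8 were above background on all 16 arrays, Cd4 on 13 (144.4 to 217.4 raw intensity units) and Maf on none. Of the 13 myeloid markers on the array, 12 were above background on none. The exception was Mpo, encoding myeloperoxidase, at 189.1 to 320.9 on 16 arrays. The summed raw intensity of the 13 myeloid markers was 1838 to 1929 in control cells and 1503 to 1720 in Akti1/2-treated cells at 2 h. At 12 h it was 1847 to 1915 and 1733 to 1843. These sums include the background of each array. At 2 h the mean negative control was 132.42 and 138.58 in control and 111.06 and 128.56 in Akti1/2-treated cells. On the normalized log2 scale described below, the mean of the 13 was 4.79 in control and 4.74 in Akti1/2-treated cells at 2 h. At 12 h it was 4.80 and 4.77. The part of these markers in the values of Cebpb was not tested.

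Cebpb lies on mouse chromosome 2 at chr2:167688915-167690432 (GRCm38.p6, RefSeq), on the plus strand. In control cells its raw intensity was 1142.6 and 870.3 at 0 h, 991.6 and 795.9 at 2 h, 1363.6 and 1092.5 at 6 h, followed by 1329.8 and 1537.8 at 12 h. In Akti1/2-treated cells it was 1227.2 and 994.9 at 0 h, 3230.8 and 2345.2 at 2 h, 3725.8 and 4745.6 at 6 h, followed by 7253.9 and 5162.8 at 12 h. All 6 arrays of stimulated, inhibitor-treated cells were brighter than all 10 other arrays. On each array Cebpb ranked between the 90.3 and the 99.1 percentile of all genes, at 5.74 to 53.7 times the mean negative control.

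After normalization, which brought the arrays to a common distribution on a log2 scale, the means of Cebpb in control cells were 9.69 ± 0.031 at 0 h, 9.54 ± 0.052 at 2 h, 10.04 ± 0.12 at 6 h and 10.22 ± 0.0081 at 12 h (log2 intensity, SD, n = 2). In Akti1/2-treated cells they were 10.00 ± 0.015, 11.73 ± 0.16, 12.07 ± 0.033 and 12.58 ± 0.19. In the order of these levels, from control at 2 h to Akti1/2 at 12 h, 1 pair of neighbours overlapped. The unstimulated Akti1/2 arrays, at 9.99 and 10.01, fell between the 6 h control arrays, at 9.95 and 10.13. Every other step in the order was wider than the gap between the arrays on either side of it.

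**Figure D1:**
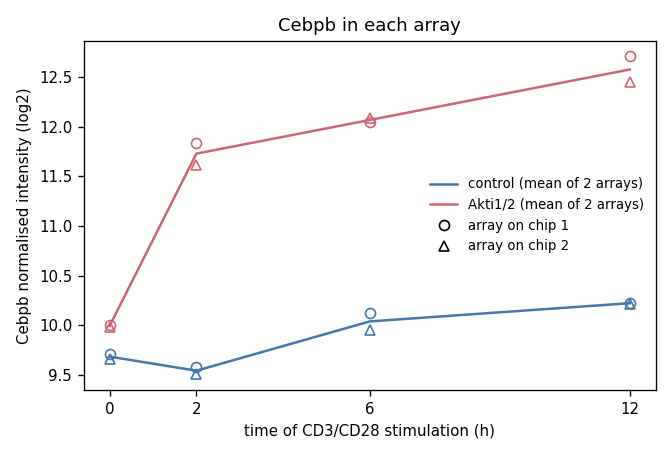
Normalized log2 intensity of Cebpb (y axis) against hours of CD3/CD28 stimulation (x axis) in control and Akti1/2-treated D10 cells. Circles and triangles are single arrays on chip 1 and chip 2, and lines join the means of 2 arrays. The arms lie 0.31 apart at 0 h and between 2.03 and 2.35 apart at 2, 6 and 12 h.

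Relative to 0 h, Cebpb in control cells was 0.14 lower at 2 h, 0.35 higher at 6 h and 0.54 higher at 12 h (log2 difference -0.14, 0.35 and 0.54, SE 0.12). These differences correspond to a level 1.10-fold lower, 1.28-fold higher and 1.45-fold higher. In the presence of Akti1/2, the log2 difference from 0 h was 1.73, 2.07 and 2.58 (SE 0.12), or 3.32-fold, 4.20-fold and 5.98-fold. Most of the difference between the arms was thus reached at 2 h, when the control arrays lay below and the Akti1/2 arrays above their own 0 h arrays.

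Akti1/2-treated cells had 1.24-fold more Cebpb signal than control cells before stimulation (log2 difference 0.31, SE 0.12). The difference was 4.55-fold at 2 h, 4.08-fold at 6 h and 5.11-fold at 12 h (log2 2.19, 2.03 and 2.35). The response in the presence of the inhibitor exceeded that in its absence by 1.87, 1.72 and 2.04 on the log2 scale at 2, 6 and 12 h (SE 0.17). Within chip 1 the values were 1.96, 1.62 and 2.18, and within chip 2 they were 1.79, 1.81 and 1.90. Both chips gave a difference of more than 1.6 at each time. Cebpb was chosen on these same arrays, so the likeness of the chips is a description and no independent support.

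The steps between later times were not themselves used to single out Cebpb. They share arrays with the comparisons that were, and each step equals the later change from 0 h minus the earlier one. The p-values of these steps are therefore not independent of the choice of Cebpb and give no support of their own. From 2 to 6 h Cebpb rose in control cells by 0.50 (log2, SE 0.12, limma with Benjamini-Hochberg adjustment over 7395 genes, adjusted p = 0.0142), a step in which 7.41% of all genes tested rose. From 6 to 12 h in control cells the difference was 0.18 (95% interval -0.072 to 0.44, limma adjusted p = 0.349), where 6.94% of genes rose. In Akti1/2-treated cells Cebpb rose by 0.34 from 2 to 6 h (limma adjusted p = 0.0457) and by 0.51 from 6 to 12 h (limma adjusted p = 0.0118). Of all genes tested, 16% rose in the first of these steps and 8.90% in the second.

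The step from 2 to 6 h differed between the arms by -0.16 (log2, inhibitor minus control, SE 0.17). In that comparison 12.1% of genes differed in either direction (limma adjusted p under 0.05). The step from 6 to 12 h differed by 0.32 (SE 0.17), where 5.80% of genes differed. Each of these values equals the later difference in response minus the earlier one, so both come from values on which Cebpb was chosen. They are given as a description with no test, and no difference between the steps of the arms is claimed. The call for the step from 2 to 6 h with inhibitor was lost when any of 12 of the 16 arrays was left out (adjusted p 0.05 to 0.276), and that for the control step was lost without the second 2 h control array (0.46, adjusted p = 0.0995) or the first 6 h control array (0.41, adjusted p = 0.105). Without the first 12 h Akti1/2 array, the step from 6 to 12 h was 0.37 (adjusted p = 0.115). With only the groups compared in the limma fit, none of the 3 called steps passed (adjusted p = 0.0757 for control from 2 to 6 h, and 0.229 and 0.125 for the Akti1/2 steps).

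The study's methods scored genes by J5, which divides the difference of 2 group means of untransformed intensity by the average size of that difference across genes, with a threshold chosen for each time point. Over all 18138 genes, the J5 of Cebpb at 2, 6 and 12 h relative to 0 h was -1.79, 3.17 and 5.23 without inhibitor. Its values in the Akti1/2 arm were 24.1, 38.2 and 47.1. With the mean taken over the genes above background, the Akti1/2 values became 11.4, 16.8 and 19.8. The score has no error term, and its size depended on which genes entered the divisor.

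The 250 bases before the RefSeq start of Cebpb, at chr2:167688665-167688914 on the plus strand of GRCm38.p6, are printed because this is the member that was measurable. Capitals mark TGACG, the core of a cAMP response element, on either strand.
Cebpb: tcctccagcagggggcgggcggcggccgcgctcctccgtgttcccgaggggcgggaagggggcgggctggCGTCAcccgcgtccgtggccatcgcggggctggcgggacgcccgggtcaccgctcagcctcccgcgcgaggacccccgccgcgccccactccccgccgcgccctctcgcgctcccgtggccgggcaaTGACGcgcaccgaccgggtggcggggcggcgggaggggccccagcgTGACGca
The stretch held 3 of these cores, at bases 180 to 176, 53 to 49 and 7 to 3 before the start. Of 32851 mouse promoters of the same length, 17.8% held at least 1. The core was searched after the data were seen and lies within the full element TGACGTCA. That full element, the C/EBP sequence TTGCNNAA, the C/EBP-ATF sequence TGATGNAA and the FOXO sequence TGTTTAC were found in none of the 3 members with an entry in the promoter table (Cebpa, Cebpb and Cebpg), on either strand. Their shares over all promoters were 1.55%, 9.56%, 3.45% and 3.17%. Such matches describe letters in these windows and say nothing of binding.

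Cebpa, the factor of granulocyte, fat and liver cell differentiation (chr7:35119293-35121928), was not above background on any array. Its raw intensity was 109.5 at the lowest, 128.65 at the median and 148.8 at the highest, or 0.934 to 1.07 times the mean negative control of the same array. Cebpg (chr7:35046422-35056566), the dimer partner, ranged from 114.6 over a median of 145.25 to 163.3, or 1.03 to 1.21 times the mean negative control. Cebpz (chr17:78919003-78937070) ranged from 121.1 over 136.65 to 159.2, or 0.951 to 1.15 times. The array entry for Cebpz carries no gene ID, so its tie to this locus rests on the symbol alone. None of these 3 genes reached the dimmest gene above background on its array, so no fold change can be given for them.

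The closest approach was by Cebpg in the first 12 h Akti1/2 array, at 163.3, with 135.7 in the second. In control cells at 12 h Cebpg was 146.6 and 155.0, between those values. Among all 16 arrays, the lowest share of negative controls as bright as the gene was 0.0213 for Cebpg, 0.0439 for Cebpz and 0.147 for Cebpa. All values of these genes lay within the spread of the negative controls. When the filter on dim genes was dropped and all genes were tested with limma, none of the 3 was called in any of 19 comparisons. At an unadjusted p under 0.05, Cebpz passed in 2 of them and the others in 0 (lowest adjusted p = 0.223). Cebpe, a granulocyte member outside the 5, was at 105.6 to 141.8 and likewise above background on none.

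**Figure D2:**
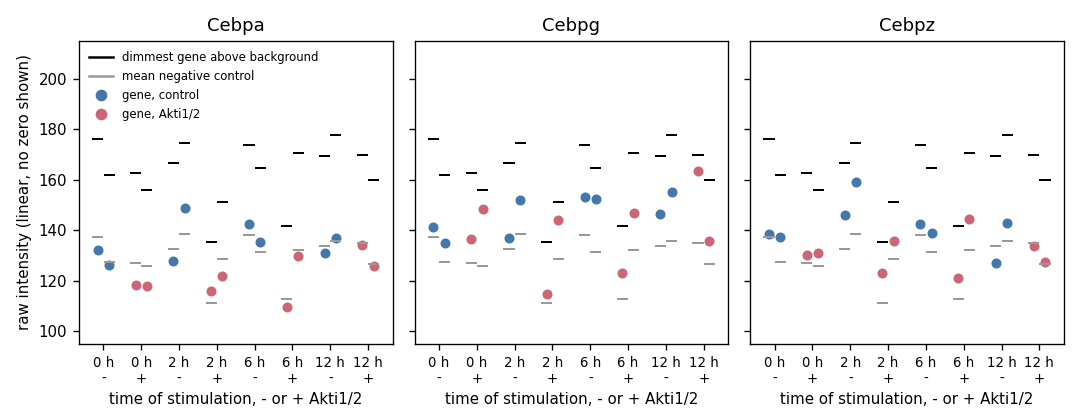
Raw intensity (y axis, linear, not starting at 0) of Cebpa, Cebpg and Cebpz in each array (points) by time and inhibitor (x axis), with the mean negative control (grey lines) and the dimmest gene above background (black lines) of the same array. All points lie below the black line of their array.

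Genes related to the family were listed with earlier results of these data known, in 3 groups, and tested for a difference in response between the arms (limma with Benjamini-Hochberg adjustment). Of 16 bZIP genes related to C/EBP, 11 could be tested. One of these, Atf3, a stress-induced repressor, was above background in 1 control array and 6 Akti1/2 arrays. It passed the filter through the arm in which it was high, so it is left out of the counts and given no size. Each of the 10 others was above background on at least 2 arrays of both arms. Of these, 2 were higher with inhibitor at 2 h (Ddit3 and Atf4), 1 was lower (Jun) and 7 were not called. Among all 6781 genes that met this condition, 4.28% were higher and 4.38% lower. At 6 h 3 were higher, with Dbp added, and 1 was lower (Batf), against 10.5% and 9.72% of the 6781. At 12 h 6 were higher and 0 lower, against 16.5% and 17.2%. The 6 were Ddit3, Atf5, Dbp, Nfe2l2, Atf4 and Atf2.

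The median difference in response over the 10 genes was 0.12, 0.56 and 0.72 on the log2 scale at 2, 6 and 12 h, beside -0.022, -0.017 and -0.034 over the 6781 genes that met the same condition in both arms. Jun is among the 10 but had no array above background at 12 h in either arm, so its value at that time is only a bound. At 12 h the median and the counts covered genes of different roles. Dbp and Tef belong to the clock-controlled PAR bZIP factors, Nfe2l2 (NRF2) to the oxidative stress response, and Fos, Jun and Batf to AP-1.

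Ddit3 encodes CHOP, a C/EBP homologue that dimerizes with C/EBP proteins and is induced by stress of the endoplasmic reticulum. Its log2 intensity in control cells was 7.19 and 7.20 at 0 h, 7.20 and 7.30 at 2 h, 7.52 and 7.41 at 6 h, followed by 7.46 and 7.27 at 12 h. In Akti1/2-treated cells it was 8.28 and 8.25, 9.84 and 9.97, 10.66 and 10.63, and 11.02 and 10.99. All Akti1/2 arrays, those at 0 h included, were above all control arrays. The difference in response was 1.57, 2.11 and 2.57 (SE 0.14), with limma adjusted p = 0.000217, 3.86e-06 and 6.01e-07. Unlike Cebpb, whose arms were 0.31 apart at 0 h, Ddit3 was 1.07 apart there (limma adjusted p = 0.00065), and whether the 2 genes differ in this was not tested.

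Atf4, the translationally controlled factor that acts upstream of Ddit3 and can dimerize with C/EBP proteins, had log2 intensities of 10.68 and 10.58 in control and 11.15 and 11.01 in Akti1/2-treated cells at 0 h. At 12 h these were 10.98 and 10.83 in control and 12.30 and 12.36 in Akti1/2-treated cells. Its difference in response was smaller, at 0.82, 0.82 and 0.97 (SE 0.17, limma adjusted p = 0.0132, 0.00496 and 0.000865). At 2 h the call was lost without the first 0 h control array (0.78, adjusted p = 0.0574) or the second 0 h Akti1/2 array (0.75, adjusted p = 0.0518). Atf5, a relative of Atf4, differed by 2.35 at 12 h (SE 0.44, limma adjusted p = 0.00165). Its control arrays at 12 h were dim, at 1.38 and 1.41 times the mean negative control. Its values at 2 and 6 h were -0.62 and 0.77 (limma adjusted p = 0.413 and 0.24), with 1 of 2 Akti1/2 arrays above background at 2 h. Those 2 arrays set the 2 h value of Atf5, which was -1.33 without the first (adjusted p = 0.00383) and 0.096 without the second (adjusted p = 0.828). The 6 h value passed without either of them (adjusted p = 0.00934 and 0.00924) and with only the groups compared (adjusted p = 0.0332).

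Of 22 regulators of C/EBP expression, translation, stability or activity, 17 could be tested and 15 were above background on at least 2 arrays of both arms. At 2 h 4 were higher with inhibitor (Trib3, Rps6ka3, Calr and Mapk14), at 6 h 3 (Trib3, Rps6ka3 and Ep300), and at 12 h 4 (Trib3, Rps6ka3, Trib2 and Stat3), with 0 lower at each time. Over the 6781 genes that met the same condition, 4.28%, 10.5% and 16.5% were higher at these times. The medians over the 15 were 0.22, 0.21 and 0.24. They include Fbxw7, with no array above background in control cells at 12 h, and Mapk3, with none there at 6 and 12 h. The values of these genes at those times are only bounds. Trib2 encodes a pseudokinase that brings C/EBPα to the ubiquitin ligase COP1, and it differed by 1.19 at 12 h (limma adjusted p = 0.00108). Trib1, of the same function, was not above background in either array of 6 of the 8 groups and has no fold change. Foxo1, the Akt-controlled forkhead factor, was not called (0.52, 0.58 and 0.53, limma adjusted p = 0.153, 0.0824 and 0.0833).

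The counts of the regulators at 2 and 6 h were the least stable. Without the first 0 h control array, 1 of them was called at each of these times. Rps6ka3, the kinase RSK2 that can phosphorylate C/EBPβ, differed by 0.99, 0.88 and 1.78 (SE 0.28, limma adjusted p = 0.0464, 0.0413 and 0.000466). Without the first 0 h control array its values at 2 and 6 h were 0.75 and 0.64, and 10 of 16 arrays at 2 h and 9 at 6 h ended the call when left out singly.

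Trib3, a pseudokinase gene induced by ATF4 and CHOP, had the largest difference in response among the named genes. In control cells its log2 intensity was 6.52 and 6.49 at 0 h, 6.25 and 6.35 at 2 h, 6.63 and 6.65 at 6 h, followed by 6.997 and 6.61 at 12 h. In Akti1/2-treated cells it was 6.82 and 6.94, 9.84 and 9.65, 10.41 and 10.26, and 11.11 and 11.13. All control arrays and the Akti1/2 arrays at 0 h lay between 6.25 and 6.997, and the stimulated Akti1/2 arrays were all higher. The former were above background but dim, at 1.43 to 1.82 times the mean negative control, so the sizes for Trib3 rest on a dim baseline. Its difference in response was 3.07, 3.32 and 3.94 (SE 0.18, limma adjusted p = 5.78e-06, 7.77e-07 and 1.49e-07).

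**Figure D3:**
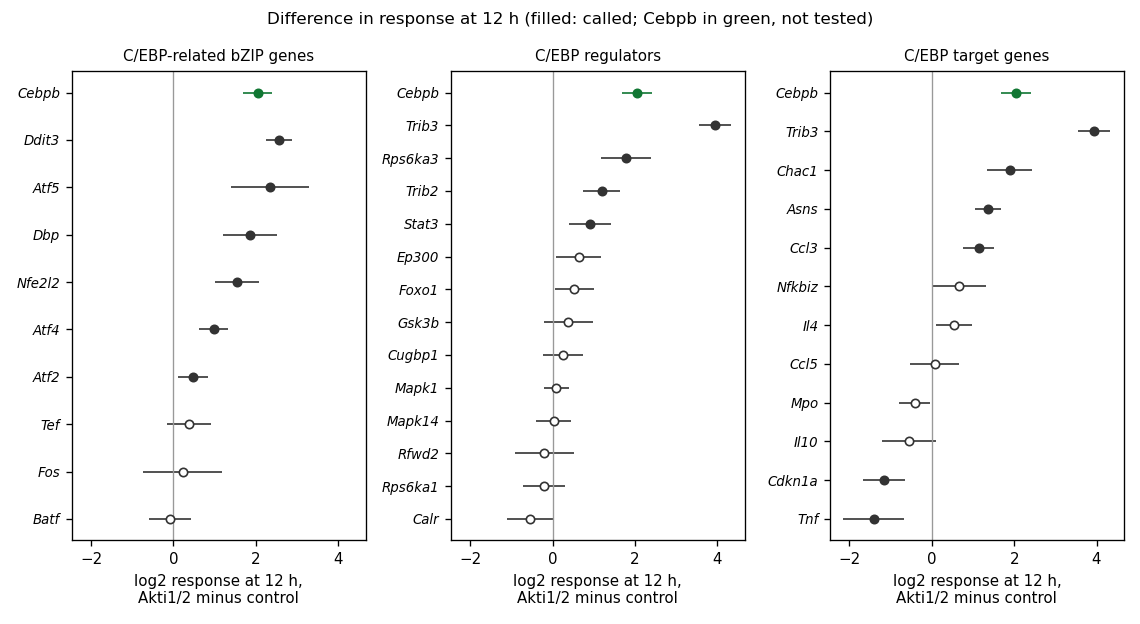
Difference in response at 12 h (x axis, log2, Akti1/2 minus control, with 95% intervals) for the list genes tested, in 3 panels, with Cebpb in green for comparison and not tested. Filled points passed the threshold in limma, and 2, 4 and 4 genes are left out because a group had no array above background. Trib3, on 2 lists, stands furthest right at 3.94, and Tnf furthest left at -1.41.

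Of 33 textbook C/EBP target genes, most of them known from liver and myeloid cells, 15 could be tested and 14 were above background on at least 2 arrays of both arms. Trib3, Chac1 and Asns were higher with inhibitor at all 3 times, and Ccl3 was added at 12 h. Lower were Tnf, Socs3 and Mpo at 2 h, Tnf, Socs3, Cdkn1a and Il10 at 6 h, and Tnf, Socs3 and Cdkn1a at 12 h. Socs3 had no array above background in Akti1/2-treated cells at 0 h, and Il6 and Cxcl2 had none at 0 h in either arm. The responses of these genes there are only bounds. They are kept in the counts and medians given here. The members thus moved in both directions, with 3 higher and 3 lower at the first time, 3 higher and 4 lower at the next, and 4 higher and 3 lower at the last. Of all genes tested, 4.23%, 10.3% and 16.3% were higher and 4.16%, 9.24% and 16.2% lower at these times. The medians over the 14 were -0.44, -0.21 and 0.14, beside -0.022, -0.017 and -0.034 over the 6781.

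Of the genes that were higher at all 3 times, Chac1 and Asns encode metabolic enzymes. Chac1, which degrades glutathione, had log2 intensities of 8.02 and 8.13 in control and 9.51 and 9.54 in Akti1/2-treated cells at 0 h. At 12 h these were 8.34 and 8.34 in control and 11.61 and 11.75 in Akti1/2-treated cells. Its difference in response was 2.33, 1.11 and 1.89 (SE 0.25, limma adjusted p = 0.000402, 0.00905 and 0.000171). Asns, asparagine synthetase, differed by 0.60, 1.23 and 1.36 (SE 0.15, limma adjusted p = 0.0281, 0.000249 and 4.52e-05).

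Among the 34 tested list genes with a promoter in the RefSeq table, 3 held TGATGNAA within 250 bases before the start. Of all promoters, 3.45% held it. Stretches of 38 bases around the match, which is in capitals, are printed for these, Atf3, Chac1 and Asns, to show where the element lies and what surrounds it. They lie at chr1:191183421-191183458 (minus strand), chr2:119351034-119351071 (plus strand) and chr6:7693210-7693247 (minus strand) of GRCm38.p6.
Atf3: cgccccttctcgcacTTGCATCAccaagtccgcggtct
Chac1: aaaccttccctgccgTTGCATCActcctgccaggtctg
Asns: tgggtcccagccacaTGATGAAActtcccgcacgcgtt
In Atf3 and Chac1 the match reads TTGCATCA in the direction of transcription, so that the element lies on the opposite strand. The element was not found in the window of Cebpb. The sequence TTGCNNAA was found in Mapk14, Il6 and Il4, and TGACGTCA and TGTTTAC in none of the 34. TTGCNNAA was held by 9.56% of all promoters. TGACG was found in 12 of the 34 genes and in 17.8% of all promoters. A gene counts here if any of its promoters holds the sequence, while the shares are per promoter.

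The genes that were lower with inhibitor included cytokines (Tnf and Il10), a feedback inhibitor of cytokine signaling (Socs3) and a cell cycle inhibitor (Cdkn1a). Tnf rose in control cells from log2 intensities of 7.38 and 7.39 at 0 h to 11.31 and 11.10 at 2 h, and was at 10.07 and 10.23 at 12 h. With Akti1/2 it went from 6.08 and 6.58 at 0 h to 7.52 and 7.66 at 2 h and 7.30 and 8.08 at 12 h. The rise passed the threshold in both arms (with inhibitor, limma adjusted p = 0.00181 at 2 h and 0.000645 at 12 h). It was smaller with inhibitor, by -2.56, -2.18 and -1.41 at 2, 6 and 12 h (SE 0.34, limma adjusted p = 0.00177, 0.00113 and 0.00755). The Akti1/2 arrays at 0 h were dim for Tnf, at 1.43 and 1.53 times the mean negative control. The sizes of its rise with inhibitor and of this difference thus rest on a dim baseline. Socs3 was not above background in Akti1/2-treated cells at 0 and 2 h, so no size is given for it.

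Il4, the defining Th2 cytokine, rose with CD3/CD28 in both arms, by 1.45, 1.58 and 1.32 in control and 1.33, 1.62 and 1.86 in Akti1/2-treated cells (log2, limma adjusted p 7.1e-07 to 3.48e-05). The difference in its response was -0.12, 0.04 and 0.54 (SE 0.20, limma adjusted p = 0.739, 0.92 and 0.0524). The last value missed the threshold in the fit used here. It passed with quantile normalization alone (adjusted p = 0.015), with genes above background on all arrays (0.0354) or on 2 arrays of each arm (0.0473), with only the groups compared (0.0351), and with a replicate block (0.0186) or a chip block (0.0235). At 12 h itself the arms differed by 0.99 (limma adjusted p = 9.75e-05).

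Over the 8 group means, the genes whose pattern was closest to that of Cebpb among the other 7394 tested were Trib3 (Pearson r = 0.994), Ssr3 (r = 0.991) and Atf4 (r = 0.987). These correlations describe means that share arrays and chips and carry no p. The 3 genes differed in the size of their change. Ssr3, a subunit of the translocon-associated protein complex of the endoplasmic reticulum, had log2 intensities of 11.35 and 11.27 in control and 11.31 and 11.32 in Akti1/2-treated cells at 0 h. At 12 h these were 11.41 and 11.46 in control and 12.03 and 11.82 in Akti1/2-treated cells, and its difference in response was 0.55, 0.43 and 0.49 at 2, 6 and 12 h (SE 0.15). Ssr3 was named for following Cebpb, so this difference is a description with no test.

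**Figure D4:**
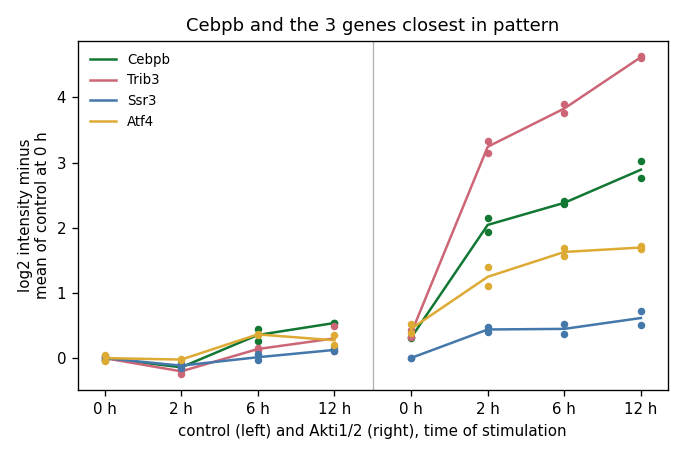
Log2 intensity of Cebpb, Trib3, Ssr3 and Atf4 relative to the mean of each gene in control cells at 0 h (y axis) in control (left) and Akti1/2-treated cells (right) by time (x axis). Points are single arrays and lines join means of 2. In control cells at 12 h Cebpb lay 0.54 above its 0 h mean, and with inhibitor the changes from 0 h at 12 h were 4.24 for Trib3, 2.58 for Cebpb, 1.25 for Atf4 and 0.61 for Ssr3.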

How the data were processed

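RNA of D10 cells was hybridized to 16 Illumina mouse RefSeq8 bead arrays. The authors deposited 1 intensity per gene on a linear scale, with neither background subtraction nor normalization according to the file header (GSGX 1.5.4), for 18138 genes and 832 control entries. Groups came from the sample titles. Intensities were corrected and quantile normalized with neqc (798 negative controls, offset 16) and converted to log2. Genes above background (detection p under 0.01) on at least 2 arrays were fitted with limma 3.58.1 in R 4.3.3 (8 groups, 8 residual and 4.26 prior degrees of freedom), with Benjamini-Hochberg adjustment over 7395 genes and a threshold of 0.05. The precision is limited by 2 arrays per group.

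Members and gene lists were chosen with earlier results of these data known. Besides the members, the genes named were Ddit3, Atf4, Trib1, Trib3 and Il4, the 2 largest rises and falls called per list at 12 h, and the 3 genes closest to Cebpb in pattern. A gene named as a rise or fall had to be called at 12 h, so its passing there gives no support. Others were named after their values were seen. The step differences, within-chip values, the filter on both arms and TGACG were added after the data were seen. Alternatives were quantile normalization alone, scaling to a common mean, other filters, fewer groups, replicate and chip blocks, and leaving out each array. A second table of control entries was not used. Promoters and loci came from RefSeq (GRCm38.p6).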

Additional observations from a re-analysis of the deposited data

Results flagged for a closer look

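Cebpb at 2 h lay below its 0 h arrays in both control arrays and above them in both Akti1/2 arrays, a difference in response of 1.87 on the log2 scale. This difference was not tested because it chose the gene.

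For the genes named beside Cebpb, the difference in response between the arms passed the threshold (limma, Benjamini-Hochberg adjusted) as follows. Ddit3 differed by 1.57, 2.11 and 2.57 at 2, 6 and 12 h. Trib3 differed by 3.07, 3.32 and 3.94, and Chac1 by 2.33, 1.11 and 1.89. Rps6ka3 differed by 0.99, 0.88 and 1.78, and Atf4 by 0.82, 0.82 and 0.97. Tnf differed by -2.56, -2.18 and -1.41. Atf5 passed at 12 h with 2.35. Atf5, Rps6ka3, Chac1 and Tnf were named because they were called at 12 h, so their passing at that time was fixed by the choice.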

How the results depend on the processing

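All 312 alternative values of the changes from 0 h, the differences between the arms and the differences in response of Cebpb kept their direction. These comparisons include the ones that chose the gene and reuse the same arrays, so the count describes the processing and gives no independent support. Quantile normalization without background correction lowered the changes with Akti1/2 from 0 h to 1.63, 1.96 and 2.45 at 2, 6 and 12 h, the differences between the arms to 2.03, 1.92 and 2.25 and the difference in response at 2 h to 1.75. Leaving out 1 array at a time gave 1.62 to 1.84 and 2.45 to 2.72 for the change with Akti1/2 at 2 and 12 h, 2.07 to 2.30 and 2.22 to 2.49 for the difference between the arms, and 1.76 to 1.98 and 1.91 to 2.17 for the difference in response. The same procedure gave 0.41 to 0.58 for the control step from 2 to 6 h, 0.23 to 0.45 and 0.37 to 0.64 for the Akti1/2 steps from 2 to 6 h and 6 to 12 h, 2 to 4 bZIP genes called at 2 h (Atf3 counted here), and 1 to 4 regulators called at 2 and at 6 h.

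With only the groups compared in the fit, the steps of 0.50 (control, 2 to 6 h, adjusted p = 0.0757), 0.34 (Akti1/2, 2 to 6 h, adjusted p = 0.229) and 0.51 (Akti1/2, 6 to 12 h, adjusted p = 0.125) were no longer called by limma, and 2 regulators were called at 2 h in place of 4. Without a filter on dim genes the Akti1/2 step of 0.34 had adjusted p = 0.0702, and 2 and 1 regulators were called at 2 and 6 h. With only genes above background on all arrays, 2 and 4 bZIP genes were called at 2 and 12 h, where 4 and 7 were called with Atf3 included. Scaling the arrays to the same mean moved the median difference in response of all genes at 6 h to 0.12, and 5 regulators were called there in place of 3.

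Of 708 alternative tests of named genes, 671 kept their side of the threshold, 24 lost it, 13 gained it and 0 reversed direction with a call. Deviations of arrays with the same replicate number were weakly correlated (median 0.017 over 56 pairs, 14 of them over 0.1, highest 0.264), so the numbers were not treated as pairing. Arrays of the same chip had a median of 0.027. Outside their own group, 10 of 16 arrays correlated best with an array of the same number and 12 with one of the same chip. With the replicate number as a block the Cebpb steps of 0.50, 0.34 and 0.51 had adjusted p = 0.0117, 0.0368 and 0.00948. A chip block changed no call of a Cebpb step. Depth has no counterpart on these arrays. Cebpa, Cebpg and Cebpz lie within the spread of the negative controls, and a change below that level could not be measured.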
